A study of Saccharomyces cerevisiae with 24 samples.

Results

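The comparison described here is that of yeast lacking SNF1 with its reference strain under glucose limitation, across all genes measured. Its members are the 6 arrays, of 24 in the series, whose titles place them in the snf1Δ strain under glucose limitation (3 cultures, numbered 10, 11 and 12) and in the reference strain under the same limitation (3 cultures, numbered 9, 10 and 11). The study grew snf1Δ, tor1Δ, snf1Δtor1Δ and reference Saccharomyces cerevisiae in glucose-limited (C-lim) and ammonia-limited (N-lim) defined media and measured messenger RNA on Affymetrix arrays. All cultures were aerobic chemostats, in which fresh medium is fed at a fixed rate and the growth rate follows the dilution rate, here 0.1 per hour, at 30 °C and pH 5.0 with a working volume of 0.5 L, and cells were taken at steady state. Glucose was supplied at 10 g/L in C-lim, and ammonium sulfate at 1 g/L in N-lim. The genotype label of the deletion cultures reads "sfn1Δ", while their titles and the series design read snf1, and the reference cultures are labelled wild type (WT). The sources used here do not give the strain background, the mating type, how the deletion was made, its marker or the number of clones. Beside the C-lim pair, 3 other groups enter the comparisons: snf1Δtor1Δ under C-lim, and snf1Δ and WT under N-lim, with 3 cultures each. The cultures are described as biological replicates and nothing more is given about them. P-values rest on the spread between cultures pooled over all 8 groups of the series, not on that of the compared groups alone.

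Snf1 is the catalytic subunit of the yeast AMP-activated protein kinase. When glucose is scarce, upstream kinases phosphorylate it, and it acts with a gamma subunit, Snf4, and one of several beta subunits to relieve repression by Mig1 and to activate Cat8, Sip4 and Adr1, factors that turn on genes for the use of ethanol, acetate, lactate and fatty acids. A glucose-limited chemostat keeps residual glucose low, a condition in which wild-type cells express many of these genes while they respire glucose. Snf1 has also been tied to the stress factors Msn2 and Msn4, to glycogen storage, to ergosterol and inositol lipids and to nitrogen control through TORC1, the complex formed around the Tor kinases.

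SNF1 checked the labels. It read 2.15 on the log2 scale of the deposited values on all 3 snf1Δ arrays, against 8.76, 8.70 and 8.78 on the WT arrays. Group means under log2 3 lie at the lower end of the scale and are called the floor, and a fold to or from the floor is a lower bound against log2 3, so SNF1 was at least 53.7-fold lower in snf1Δ. TOR1, the kinase gene deleted in other strains of the series, read 7.16, 7.11 and 7.14 in snf1Δ and 7.05, 7.01 and 6.76 in WT, a rise of 0.20. The genes on either side of SNF1 changed little: YDR476C fell by 0.36 ± 0.06 (SE) on the log2 scale, and SNM1, an RNase MRP subunit, rose by 0.45 ± 0.08.

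The 6 arrays were alike in scale, with medians over 5449 genes between 7.80 and 7.90 and a lowest correlation within a group of 0.993. Some cultures stood apart on particular genes. Culture 10 of snf1Δ lay at least 1 log2 unit from the mean of its 2 partners for 30 genes, 20 above and 10 below, and these included ADH2, ADY2 and FDH1 on the high side and iron genes on the low side. Culture 11 of snf1Δ lay as far from its partners for 31 genes, 26 of them below, and culture 10 of WT for 28 genes, 27 of them below. Of those 26 and 27 low genes, 15 were the same, among them NUT2, ECM2 and RTG1, and 2 of the 15 were called between the strains. The other arrays had 2 to 8 such genes. For single genes, results that rest on these arrays are given with and without them. This was done where the call changed or the fold moved by more than 1.5 times. Counts over lists rest on all arrays unless stated. Without snf1Δ culture 10, 2018 of all genes were higher and 1162 lower. Higher and lower genes then numbered 15 and 3 of 25 for phosphate, 31 and 1 of 81 for ribosome biogenesis and 22 and 2 of 39 for respiratory complexes. They were 10 and 5 of 20 for amino acid permeases, 5 and 3 of 25 for TORC1 and 10 and 1 of 12 for daughter-cell separation.

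Of the 5449 genes, 3383 (62.1%) differed between snf1Δ and WT under C-lim at an adjusted p of 0.05 (limma, Benjamini-Hochberg adjustment), 2207 higher (40.5%) and 1176 lower (21.6%) in snf1Δ. With each array centred on its median, 1955 were higher and 1314 lower. Quantile normalization gave 2014 higher and 1270 lower. The spread between cultures was small, with a median SD over genes above the floor of 0.0852 in snf1Δ and 0.121 in WT. That of WT was the largest of the 8 groups whose spread was pooled, the others lying between 0.0609 and 0.101. Small shifts therefore passed the test, and the median change over all genes was +0.10. The large changes leaned the other way: 182 genes were called and at least 2-fold higher (3.34%), against 330 that were at least 2-fold lower (6.06%). The arrays of the strains did not overlap for 3357 genes (61.6%), with 40.0% higher and 21.6% lower throughout in snf1Δ. Among called genes, 34 lay at the floor only in snf1Δ, 33 only in WT and 24 in both strains.

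**Figure D1:**
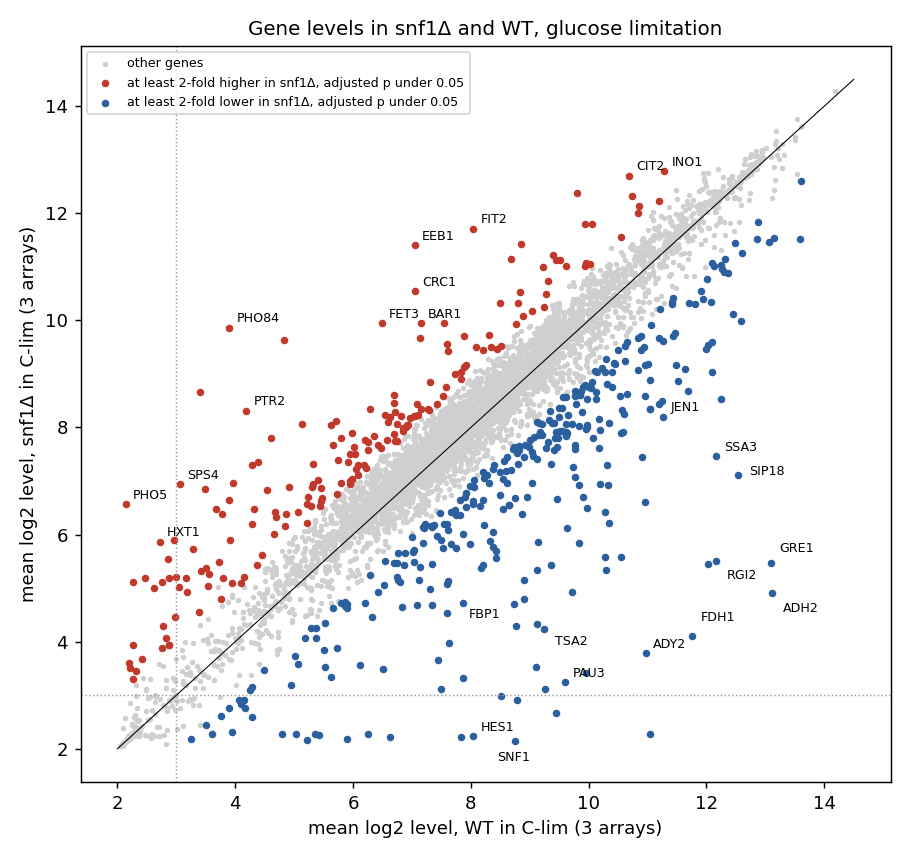
Mean log2 level of each gene over 3 WT cultures (x axis) and 3 snf1Δ cultures (y axis) under C-lim, with called genes at least 2-fold higher in snf1Δ in red and at least 2-fold lower in blue, and dotted lines at log2 3. The 330 blue genes reach farther from the diagonal than the 182 red ones. Among the labelled genes, ADH2, GRE1, FDH1 and ADY2 lie far under the diagonal, and PHO84, PHO5 and EEB1 lie far above it.

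Of the kinase itself and its regulators, all 10 genes listed were called, 7 higher and 3 lower including SNF1, against 62.1% of all genes. SIP2, one of the 3 alternative beta subunits, read 5.92, 5.97 and 6.03 in snf1Δ and 7.38, 7.42 and 7.50 in WT, a 2.75-fold fall. TOS3, one of the kinases that activate Snf1, read 6.97, 6.86 and 6.81 in snf1Δ and 5.10, 5.43 and 5.36 in WT, a 2.99-fold rise. The strains did not overlap for either gene. SNF4, the gamma subunit, rose by 0.51 ± 0.07, while the other beta subunits SIP1 (+0.32) and GAL83 (+0.18) and the activating kinase ELM1 (+0.47) rose by less than 0.5. SAK1, the main activating kinase, and REG1, the phosphatase subunit that counters it, both rose by 0.25, and GLC7, the phosphatase itself, fell by 0.28. These small shifts were fragile. SAK1 was not called without snf1Δ culture 10 or 12 or WT culture 11 (adjusted p = 0.0852 to 0.171), GLC7 was not called without snf1Δ culture 10 or 11 or WT culture 9 or 11 (adjusted p = 0.0889 to 0.233), and GAL83 was not called without WT culture 9 (adjusted p = 0.0539).

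Among 15 transcription factors of carbon control, 3 rose and 8 fell, beside 40.5% and 21.6% of all genes, with a median of −0.46. CAT8, the activator of gluconeogenic genes, read 6.36, 6.06 and 6.06 in snf1Δ and 7.27, 7.28 and 7.41 in WT, a 2.24-fold fall (adjusted p = 3.54e-08, limma). SIP4, which binds the same promoter element, fell 3.43-fold, and USV1, a factor of respiratory growth, fell by 2.47 ± 0.13. NRG2, a repressor that Snf1 is known to bind, read 8.18, 7.88 and 8.19 in snf1Δ and 10.45, 10.12 and 10.46 in WT, and MIG1, the glucose repressor, fell by 0.65 ± 0.10. The mRNA of ADR1, the activator of ADH2 and of peroxisomal genes, did not pass the test, with 7.98, 7.57 and 7.44 in snf1Δ, 7.96, 7.34 and 7.69 in WT and overlapping arrays (adjusted p = 0.998). HAP4, the limiting subunit of the activator of respiratory genes, was higher in all snf1Δ cultures, at 10.79, 10.64 and 10.66 against 10.16, 10.22 and 9.99 in WT (+0.57 ± 0.06). ERT1 (+0.53) and the second Mig repressor, MIG2 (+0.74), also rose.

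Genes of gluconeogenesis and the glyoxylate cycle, which build sugars from acetate, fell as a group: 9 of 12 fell and 2 rose, with a median of −1.40 against +0.10 for all genes. FBP1, fructose-1,6-bisphosphatase, read 4.11, 4.36 and 4.42 in snf1Δ and 8.69, 8.64 and 8.94 in WT, a 22.0-fold fall (log2 −4.46 ± 0.15, adjusted p = 2.35e-14). PCK1, which makes phosphoenolpyruvate from oxaloacetate, read 6.41, 6.94 and 6.56 in snf1Δ and 7.80, 7.93 and 7.74 in WT. MLS1, the malate synthase of the glyoxylate cycle, read 7.54, 8.30 and 7.94 in snf1Δ and 9.52, 9.61 and 9.52 in WT. No snf1Δ culture reached its WT range for any of these 3 genes, and the falls differed in size, from 2.28-fold for PCK1 to 22.0-fold for FBP1. IDP2 (−1.78), CIT3 (−1.72), ICL2 (−1.69) and SFC1 (−1.65), enzymes of cytosolic NADPH supply, citrate and methylcitrate turnover and a succinate-fumarate carrier, fell by similar amounts, and MDH2 fell by 0.74. ICL1, isocitrate lyase, fell by 0.47 with overlapping arrays and was not called without snf1Δ culture 10 (adjusted p = 0.173) or without WT culture 11 (adjusted p = 0.0652). The 2 genes that rose were PYC1, a pyruvate carboxylase (+0.79), and MAE1, the mitochondrial malic enzyme (+0.67). PYC2 did not pass the test.

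Of 14 genes for the uptake and oxidation of ethanol, acetate and lactate, 9 fell and 3 rose (median −1.46). The shares of all genes were 21.6% and 40.5%. ADH2, the alcohol dehydrogenase that oxidizes ethanol, read 6.73, 3.50 and 4.47 in snf1Δ cultures 10, 11 and 12, against 13.29, 13.18 and 12.85 in WT. ADY2, an acetate transporter, read 5.30, 2.93 and 3.13 in snf1Δ and 10.90, 10.86 and 11.16 in WT. In both genes culture 10 was the highest of the snf1Δ cultures, by more than 2 log2 units over the mean of its partners, yet all lay far under WT. The falls were 294-fold for ADH2 (log2 −8.20 ± 0.83, adjusted p = 1.22e-07) and 145-fold for ADY2, and without culture 10 the log2 change was −9.12 for ADH2 and −7.94 for ADY2. Without snf1Δ culture 11, the lowest, it was −7.50 for ADH2. JEN1, the lactate transporter, read 8.76, 7.94 and 7.90 in snf1Δ and 11.44, 11.28 and 11.10 in WT. ACS1, the acetyl-CoA synthetase used on poor carbon sources, read 9.88, 9.35 and 9.37 in snf1Δ and 12.04, 12.04 and 12.02 in WT, a 5.65-fold fall. ACS2, the other acetyl-CoA synthetase, which cells growing on glucose need, went the other way, at 11.94, 11.94 and 11.97 in snf1Δ and 10.93, 11.20 and 11.04 in WT, a 1.86-fold rise. The aldehyde dehydrogenase genes were split, with falls for ALD3 (−2.18), ALD2 (−1.41) and mitochondrial ALD4 (−0.81) and a rise for cytosolic ALD6 (+0.35). ATO3, a relative of ADY2, fell by 2.59, and CYB2, L-lactate dehydrogenase, fell 2.84-fold. ATO2 (−0.54, adjusted p = 0.175) and DLD1 (+0.08) did not pass, although ATO2 was called without culture 10 (adjusted p = 0.0323).

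Of 8 further genes linked to respiratory growth, 7 fell and none rose, with a median of −3.35. FDH1, formate dehydrogenase, read 6.09, 2.79 and 3.46 in snf1Δ and 11.76, 11.58 and 11.91 in WT, a 199-fold fall. Culture 11 of snf1Δ read under log2 3 for FDH1, and likewise for ADY2 and AQY1. The floor rule goes by group means, so the folds of these genes are partly limited by the floor. RGI2, a protein of energy metabolism under respiration, read 6.97, 4.41 and 5.13 in snf1Δ and 12.22, 11.97 and 12.29 in WT, a 100-fold fall. Culture 10 was again the highest of the deletion cultures, and without it the log2 falls were −8.62 for FDH1 and −7.38 for RGI2, while without culture 11 that of FDH1 was −6.97. ISF1 (−4.70) and MBR1 (−4.03), a pair of related genes of mitochondrial function, fell, as did OM45 (−2.66), RGI1 (−1.59) and NDE2 (−1.43), while PLN1 did not pass.

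**Figure D2:**
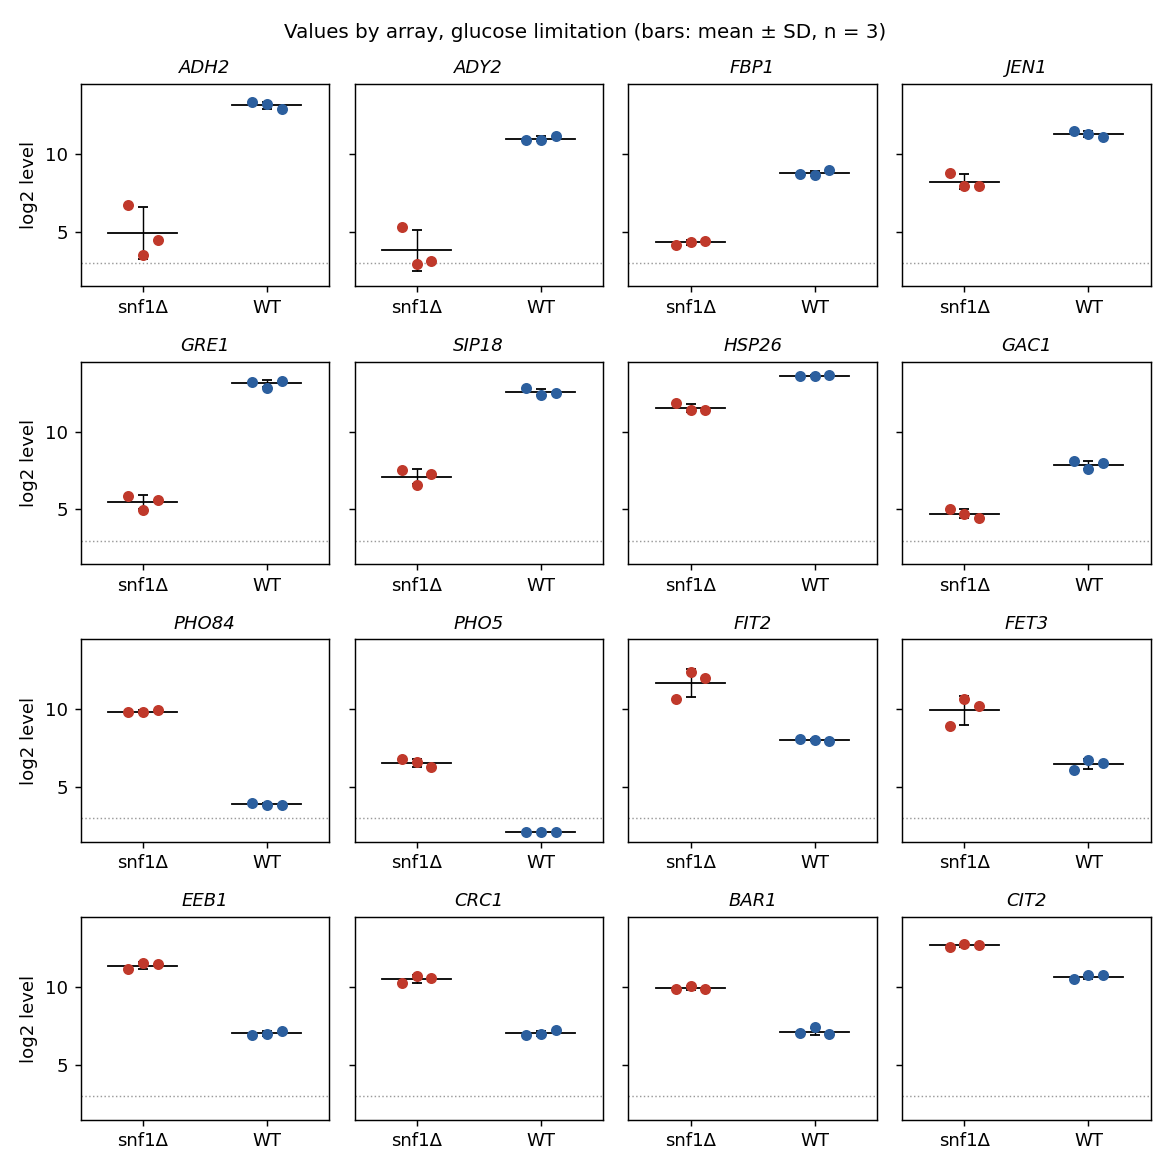
Log2 level of 16 genes on each C-lim array, snf1Δ cultures left and WT cultures right in each panel, with the mean and SD as bars and the floor at log2 3 dotted. ADH2 and ADY2 show one snf1Δ culture above its partners, FIT2 and FET3 show the same culture under its partners, and in none of the 16 panels do the strains overlap.

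Peroxisomal beta-oxidation, the only route of fatty acid breakdown in this yeast, followed with 15 of 20 genes lower and 3 higher (median −0.61). Over all genes, 21.6% were lower and 40.5% higher. PXA1 and PXA2, the subunits of the transporter that imports long-chain fatty acids into peroxisomes, fell by 2.90 and 1.54, and CTA1, peroxisomal catalase, by 2.24. IDP3 (−1.34), FAA2 (−1.25), DCI1 (−1.14) and FOX2 (−0.78) also fell, whereas POT1, the thiolase, did not pass (+0.03), and ANT1, the peroxisomal ATP carrier, and PIP2, an oleate-responsive activator, rose by 0.62 and 0.54. In the carnitine shuttle, which carries acetyl groups from peroxisomes and cytosol into mitochondria, the members moved apart. CRC1, the mitochondrial carnitine carrier, read 10.27, 10.75 and 10.63 in snf1Δ and 6.93, 6.99 and 7.24 in WT, an 11.3-fold rise (adjusted p = 1.5e-11), and the carnitine acetyltransferase YAT1 rose by 0.99. The main acetyltransferase CAT2 (−0.60) and the plasma membrane carnitine transporter AGP2 (−0.40) fell, and YAT2 did not pass. AGP2 was not called without snf1Δ culture 12 (adjusted p = 0.0894). EEB1, an ethyl ester synthase for medium-chain fatty acids, read 11.16, 11.54 and 11.50 in snf1Δ and 6.92, 7.02 and 7.22 in WT (20.3-fold, adjusted p = 3.14e-17). The strains were more than 3 log2 units apart in every pairing of cultures for EEB1 and for CRC1. EHT1, a close relative of EEB1, rose 2.01-fold, and the acetate ester gene ATF2 fell by 1.04.

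Hexose transporters divided. Of 19 measured transporters and sensors, 4 rose, 4 fell and 7 lay at the floor in both strains. Of all genes, 40.5% rose and 21.6% fell. HXT1, the low-affinity carrier normally made at high glucose, read 6.10, 5.58 and 5.93 in snf1Δ and 2.72, 2.73 and 2.71 in WT, at least 7.30-fold higher. HXT3, another low-affinity carrier, read 9.04, 9.84 and 9.42 in snf1Δ and 7.59, 7.49 and 7.74 in WT. HXT5, a carrier of slow growth and starvation, read 8.64, 8.26 and 8.14 in snf1Δ and 11.23, 10.86 and 11.06 in WT. Both low-affinity carriers were thus higher in every snf1Δ culture and HXT5 lower in every one, by 6.51-fold. HXT2, of higher affinity, fell by 1.10, while HXT7 (+0.10) and HXT4 (−0.47) did not pass, and probes cannot fully tell apart near-identical carriers. Of the signalling genes, STD1 rose by 0.96 and its relative MTH1 fell by 0.72, RGT1, the repressor they work with, rose by 0.23, and the sensor SNF3 fell by 0.43. Of 13 genes for other sugars, 6 fell and 2 rose. SUC2, invertase, a classic Snf1-dependent gene, read 9.49, 8.95 and 8.87 in snf1Δ and 10.21, 10.10 and 10.35 in WT, a 2.17-fold fall. MAL11, a maltose and trehalose carrier, fell by 2.10.

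Glycolysis and ethanol formation changed little in size (median +0.17). Against 40.5% of all genes higher and 21.6% lower, 14 of 24 were higher and 4 lower. The 4 were PDC6 (−2.44), TDH1 (−1.04), GLK1 (−1.03) and ENO1 (−0.72), which are isoforms rather than sole enzymes of their steps. HXK2, the main hexokinase, rose by 0.64, and PFK1 and PFK2, the phosphofructokinase subunits, by 0.61 and 0.38, while PGK1 (−0.01) did not pass. Reserve carbohydrate genes fell: 15 of 20 were lower and 2 higher, with a median of −0.80. GAC1, which brings the phosphatase Glc7 to glycogen synthase, read 5.00, 4.73 and 4.47 in snf1Δ and 8.08, 7.58 and 7.95 in WT, an 8.81-fold fall. Falls took in both synthesis and breakdown, with the branching enzyme GLC3 (−1.64), glycogenin GLG1 (−1.60), glycogen synthase GSY2 (−0.82), phosphorylase GPH1 (−1.28), debranching enzyme GDB1 (−1.18), acid trehalase ATH1 (−2.07) and trehalose synthase TPS1 (−0.76). The phosphoglucomutases moved in opposite directions: PGM2 fell by 2.05 ± 0.15, and PGM1 read 7.78, 7.91 and 7.83 in snf1Δ and 6.08, 6.47 and 6.50 in WT, a 2.80-fold rise.

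All 33 genes listed as targets of the stress factors Msn2 and Msn4 fell in snf1Δ, 26 of them at least 2-fold, with a median of −1.73, against 21.6% of all genes lower and 6.06% lower by at least 2-fold. GRE1, a hydrophilin of desiccation, read 5.84, 4.95 and 5.60 in snf1Δ and 13.19, 12.81 and 13.28 in WT, a 198-fold fall. SIP18, its relative, read 7.51, 6.54 and 7.27 in snf1Δ and 12.78, 12.37 and 12.46 in WT, a 43.1-fold fall. HSP26, a small heat shock protein, read 11.83, 11.37 and 11.36 in snf1Δ and 13.56, 13.56 and 13.61 in WT, a 4.16-fold fall. The snf1Δ cultures lay below every WT culture in these 3 genes. GND2 (−4.35) and SOL4 (−3.03), stress isoforms of the pentose phosphate pathway, RTN2 (−4.00), MSC1 (−3.05), catalase CTT1 (−2.10), and DDR2 (−1.61) also fell, HSP12, a membrane-protecting stress protein, fell 2.01-fold, and the smallest fall was that of HOR7 (−0.15). The transcript of MSN2 did not pass the test (+0.03), and that of MSN4 rose, with 6.61, 6.37 and 6.28 in snf1Δ and 4.95, 5.18 and 5.08 in WT, a 2.54-fold difference.

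Among 24 chaperone genes, 15 fell and 7 rose, beside 21.6% and 40.5% of all genes, with a median of −0.50. SSA3, a stress-induced Hsp70, read 8.05, 7.18 and 7.17 in snf1Δ and 12.32, 11.88 and 12.31 in WT, a 26.1-fold fall, and SSE2 (−2.25), SSA4 (−1.96), HSP42 (−1.72) and the disaggregase HSP104 (−1.21) fell as well. SSA2 (+0.53), SSB2 (+0.48) and SSB1 (+0.40), Hsp70 genes expressed in growing cells, rose, and SSA1, another Hsp70 gene, fell by 0.71. Peroxide and redox genes gave 15 lower and 6 higher of 24, beside 21.6% and 40.5% of all genes. TSA2, a stress-induced peroxiredoxin, read 4.56, 3.98 and 4.18 in snf1Δ and 9.50, 9.12 and 9.09 in WT, a 31.9-fold fall, whereas TSA1, the major cytosolic peroxiredoxin, did not pass (+0.04). The peroxidases GPX1 (−2.65) and HYR1 (−0.97) and the mitochondrial superoxide dismutase SOD2 (−0.75) fell, and thioredoxin reductase TRR1 rose by 0.56. Of genes of water and glycerol, AQY1, an aquaporin, read 4.15, 2.59 and 3.47 in snf1Δ and 10.25, 9.69 and 9.93 in WT, a 93.7-fold fall, and the glycerol-use genes GUT1 and GUT2 fell by 2.17 and 1.39. STL1, the glycerol importer, overlapped between strains (−0.27, adjusted p = 0.299) and was called lower without snf1Δ culture 10 (log2 −0.64, adjusted p = 0.000792).

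Phosphate genes rose. Yeast short of phosphate activates Pho4, which induces a high-affinity transporter, secreted phosphatases and the vacuolar polyphosphate polymerase. Of 25 measured genes of this system, 18 were higher in snf1Δ and 3 lower (median +0.47), beside 40.5% and 21.6% of all genes. PHO84, the high-affinity phosphate transporter, read 9.82, 9.81 and 9.95 in snf1Δ and 3.98, 3.89 and 3.84 in WT, a 62.1-fold rise (log2 +5.96 ± 0.13, adjusted p = 7.32e-17). PHO5, the main secreted acid phosphatase, read 6.81, 6.61 and 6.29 in snf1Δ and 2.13, 2.14 and 2.13 in WT, at least 11.9-fold higher. SPL2, which down-regulates low-affinity phosphate uptake, read 5.35, 4.36 and 5.30 in snf1Δ and 2.72, 2.52 and 2.62 in WT. Both PHO5 and SPL2 were at the floor in every WT culture and above it in every snf1Δ culture. The polyphosphate polymerase subunits VTC3 (+1.12), VTC1 and VTC4 (+0.59 each) rose, as did PHO81, the inhibitor of the Pho80-Pho85 kinase (+0.70), and the sodium-coupled transporter PHO89 (+0.62), which was not called without snf1Δ culture 10 or WT culture 9 (adjusted p = 0.138 and 0.0624). The regulators PHO4 (−0.02) and PHO85 did not pass, and PHO2, the partner of Pho4, and the cyclin PHO80 rose by 0.65 and 0.33. The 3 genes that fell were PHM8, a nucleotide phosphatase (−1.73), the low-affinity transporter PHO90 (−0.27) and PHO3, a thiamine-repressed phosphatase, which was at least 2.08-fold lower. PHO80 was not called without snf1Δ culture 10 or 11 or WT culture 9 or 11 (adjusted p = 0.0577 to 0.105), nor PHO90 without snf1Δ culture 12 or WT culture 10 (adjusted p = 0.0603 and 0.0793).

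Iron uptake genes rose as well, with 21 of 28 higher and 1 lower, beside 40.5% and 21.6% of all genes. The rise was at least 2-fold for 13 of the 28, beside 3.34% of all genes, and their median change was +0.66. In yeast, Aft1 and Aft2 activate iron uptake genes when iron for the mitochondrial iron-sulfur pathway runs short. FIT2, a cell wall mannoprotein that holds siderophores, read 10.69, 12.43 and 12.02 in snf1Δ and 8.10, 8.04 and 7.99 in WT, a 12.7-fold rise. FET3, the multicopper oxidase of high-affinity uptake, read 8.91, 10.70 and 10.23 in snf1Δ and 6.12, 6.78 and 6.58 in WT, a rise of 3.46 ± 0.31 on the log2 scale. SIT1, a ferrioxamine transporter, read 6.54, 8.60 and 8.27 in snf1Δ and 4.58, 4.59 and 4.66 in WT, a 9.17-fold rise. In all 3 genes culture 10 was the lowest snf1Δ culture and still lay above WT. FIT3 (+2.55), ENB1 (+2.93), FRE3 (+1.97), ARN1 (+1.57), the permease FTR1 (+1.41) and the copper pump CCC2 (+1.26) followed. TIS11, which degrades messages of iron-using proteins, read 6.45, 8.78 and 8.18 in snf1Δ and 6.03, 5.56 and 5.79 in WT. HMX1, heme oxygenase, varied less between cultures, with 10.58, 10.96 and 10.69 in snf1Δ and 9.34, 9.30 and 9.29 in WT (+1.43 ± 0.07). AFT1 rose by 1.07 ± 0.11, AFT2 did not pass, and the single fall was FRE4, at the floor in snf1Δ and at least 5.15-fold lower. FRE1 rose by 0.56 with overlapping arrays and was not called without snf1Δ culture 11 or 12 (adjusted p = 0.0956 and 0.0704). FET4, a low-affinity carrier, was not called without snf1Δ culture 10 or 11 or WT culture 10 or 11 (adjusted p = 0.0593 to 0.124).

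The snf1Δ cultures differed among themselves in some of these genes. Against the mean of cultures 11 and 12, culture 10 was 2.97 log2 units higher for FDH1, 2.74 for ADH2, 2.27 for ADY2 and 2.20 for RGI2, and it was lower for TIS11 (−2.04), SIT1 (−1.90), FIT3 (−1.70), FET3 (−1.56) and FIT2 (−1.53). These 9 genes were picked because culture 10 stood apart in them, and in each it lay nearer to WT than its partners did. Other carbon genes were mixed. Culture 10 was the highest snf1Δ culture for JEN1, ACS1 and CIT3, and the lowest for FBP1, PCK1 and MLS1. The median over the ethanol, acetate and lactate genes was 10.3, 9.55 and 9.66 in cultures 10, 11 and 12, against 11.3 in WT. The median over the gluconeogenic genes was 9.05 in culture 10, 9.43 in culture 11 and 9.45 in culture 12, against 9.70 to 9.89 in WT. Over the 28 iron genes the median level was 7.17, 8.74 and 8.28 in snf1Δ cultures 10, 11 and 12 and 6.39 to 6.63 in WT. Without culture 10, the log2 rise was 3.98 for FET3, 4.18 for FIT2, 3.12 for FIT3, 3.83 for SIT1 and 2.69 for TIS11, and 22 iron genes were higher and 1 lower. What set culture 10 apart was not tested.

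**Figure D3:**
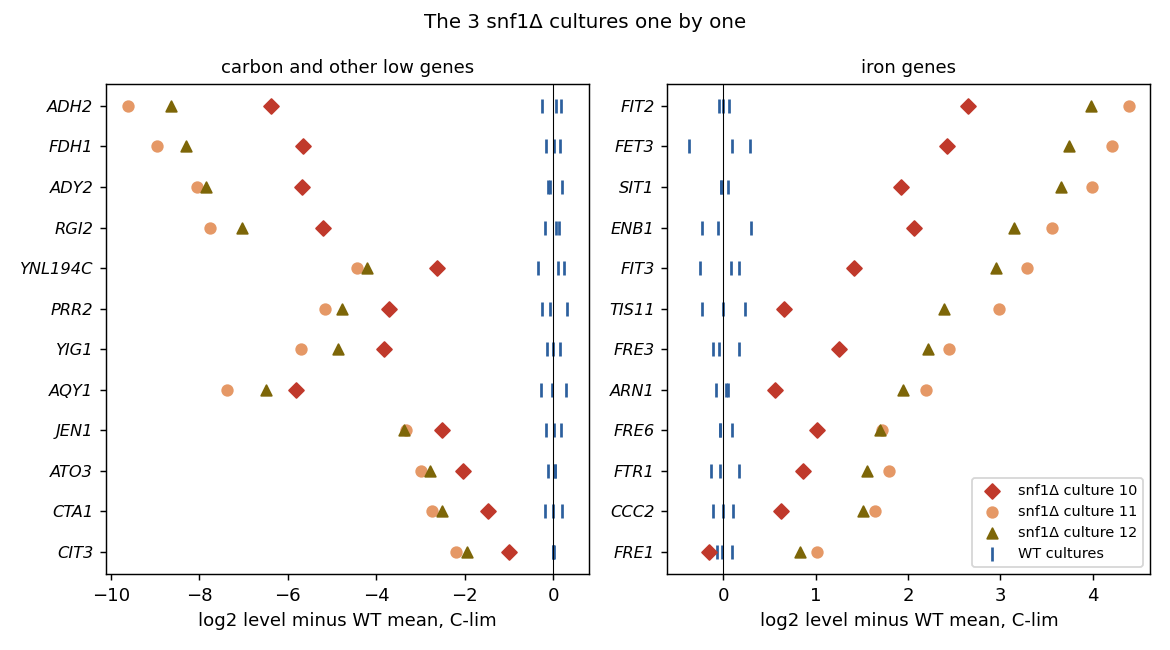
Level of each snf1Δ culture minus the WT mean for 12 carbon and other genes that fell and 12 iron genes, in log2 units, with culture 10 as diamonds, 11 as circles and 12 as triangles, and each WT culture as a blue tick. The genes shown were chosen for the distance of culture 10 from its partners or as iron genes, and culture 10 lies nearest to 0 among the 3 for ADH2, ADY2, FDH1 and RGI2 and for FIT2, FET3, SIT1 and TIS11.

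Retrograde genes, which report a weak TCA cycle to the nucleus through Rtg1 and Rtg3, gave 9 of 11 higher and 0 lower (median +0.79). CIT2, peroxisomal citrate synthase and the standard reporter of this pathway, read 12.61, 12.80 and 12.69 in snf1Δ and 10.54, 10.77 and 10.76 in WT, a 4.02-fold rise (adjusted p = 8.3e-12). DLD3, D-2-hydroxyglutarate transhydrogenase, read 10.95, 11.21 and 10.82 in snf1Δ and 9.21, 9.43 and 9.02 in WT, a 3.41-fold rise. IDH1 and IDH2, the NAD-linked isocitrate dehydrogenase, rose by 1.01 and 1.18, ACO1, aconitase, by 0.46 and CIT1 by 0.32. RTG1 did not pass (adjusted p = 0.0589), and its lowest readings were in the 2 cultures noted above, snf1Δ 11 (3.88) and WT 10 (2.33). Of 15 TCA genes, these 4 among them, 7 were higher and 2 lower, beside 40.5% and 21.6% of all genes. The 2 that fell were the succinyl-CoA ligase subunits LSC1 (−0.51) and LSC2 (−0.24).

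Of 39 genes for respiratory complexes and the ATP synthase, 26 were higher and 2 lower with a median of only +0.19, and centring each array on its median left 16 higher. COX5B, the hypoxic isoform of a cytochrome oxidase subunit, rose by 1.10. CYC1, the aerobic cytochrome c, rose by 0.82, and CYC7, the hypoxic one, fell by 0.93. The fall of NDE2 (−1.43) stood beside a rise of NDE1 (+0.61), both external NADH dehydrogenases. Mitochondrial ribosomal proteins rose more evenly, 60 of 66 being higher and 1 lower (median +0.43), against 40.5% of all genes higher. MRPL35 (+0.93), RSM24 (+0.88) and MRP1 (+0.88) rose most among those named, and MRP8, the gene that fell, dropped by 0.78.

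Transport and synthesis of amino acids leaned upward. PTR2, the di- and tripeptide transporter, read 8.77, 8.24 and 7.92 in snf1Δ and 3.78, 4.61 and 4.17 in WT, a 17.4-fold rise. CUP9, the repressor of PTR2, read 9.06, 9.04 and 9.07 in snf1Δ and 10.08, 10.10 and 10.13 in WT, a fall of 1.05 ± 0.06. Neither gene overlapped between strains. Among 20 amino acid permeases, 12 rose and 4 fell, beside 40.5% and 21.6% of all genes. DIP5, for acidic amino acids, read 5.20, 5.43 and 4.95 in snf1Δ and was at the floor in WT, at least 4.57-fold higher, and GNP1 (+2.06), TAT2 (+1.55), MUP1 (+1.18) and AGP1 (+1.14) rose. BAP2, for branched-chain amino acids, fell by 1.29 ± 0.25, AGP3 was at least 2.15-fold lower, and PUT4, the proline permease, fell by 0.51. Of 27 genes under nitrogen catabolite repression, which good nitrogen sources switch off, 15 rose and 6 fell. Over all genes the shares were 40.5% and 21.6%. PUT1 (+1.12), the ammonium carrier MEP3 (+1.00) and the repressor DAL80 (+0.89) rose, MEP1 fell by 0.66, and MEP2 did not pass. The glutamate dehydrogenases GDH3 (−2.06) and GDH2 (−1.24) fell. Biosynthetic targets of Gcn4, the activator of amino acid synthesis, gave 36 of 46 higher and 1 lower (median +0.31), with LEU9 at +0.82 and ARG4 at +0.74 and a fall of LEU4 (−0.31). Of 26 sulfate and methionine genes, 17 rose, including SUL2 (+0.96) and MET3 (+0.93), and 1, STR3, fell (−1.22).

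Lipid genes moved by branch. Inositol and phospholipid genes, targets of Ino2 and Ino4, gave 14 of 18 higher and 1 lower (median +0.63). Over all genes the shares were 40.5% and 21.6%. INO1, inositol phosphate synthase, read 12.86, 12.73 and 12.78 in snf1Δ and 11.24, 11.38 and 11.23 in WT, a 2.85-fold rise, and PSD1 (+1.26), PIS1 (+1.16), ITR1 (+0.96) and CHO1 (+0.91) rose with it, while INO2, INO4 and the repressor OPI1 did not pass. ELO1, the elongase of medium-chain fatty acids, read 11.24, 11.23 and 11.20 in snf1Δ and 9.44, 9.43 and 9.30 in WT, a 3.56-fold rise, while FAS1, fatty acid synthase, fell by 0.58 and the desaturase OLE1 and ACC1, acetyl-CoA carboxylase and a known Snf1 substrate, did not pass. Ergosterol genes fell, 17 of 27 being lower and 5 higher (median −0.45), beside 21.6% and 40.5% of all genes. UPC2, the sterol-sensing activator, read 5.54, 4.73 and 5.18 in snf1Δ and 7.65, 6.42 and 7.29 in WT, a 3.92-fold fall without overlap. ERG6 (−1.34), ERG3 (−1.30), ERG24 (−1.19), HMG1 (−1.16) and ERG11 (−1.04) fell, and the 5 that rose were MVD1 (+0.46), ERG8 (+0.41), ERG10 (+0.27), ERG4 and ERG20. ERG4 was not called without snf1Δ culture 11 or WT culture 9 (adjusted p = 0.0734 and 0.0667), nor ERG20 without snf1Δ culture 10 or WT culture 11 (adjusted p = 0.0702 and 0.114). HES1, an oxysterol-binding protein, was at the floor in all snf1Δ cultures and read 8.37, 7.82 and 7.94 in WT, at least 32.9-fold lower.

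Genes of a-type cells and of pheromone response were higher. All 7 markers of mating type a rose, with a median of +1.61 and a median level per array of 9.97 to 10.17 in snf1Δ and 8.80 to 8.99 in WT. BAR1, the protease that degrades alpha-factor, read 9.87, 10.07 and 9.90 in snf1Δ and 7.07, 7.42 and 6.97 in WT, a 6.95-fold rise, and the receptor STE2 (+1.61), the pheromone genes MFA1 (+1.60) and MFA2 (+1.87) and the exporter STE6 (+1.42) rose too. Of 4 alpha-type markers, 1 rose, MF(ALPHA)1 (+0.70), STE3 and SAG1 did not pass and MF(ALPHA)2 was at the floor, and their median level per array was 5.18 to 5.59 in snf1Δ and 4.97 to 5.29 in WT. In the pheromone response, 21 of 29 genes rose and 2 fell, beside 40.5% and 21.6% of all genes. SST2, which damps the signal, read 6.64, 6.78 and 6.54 in snf1Δ and 3.84, 4.19 and 3.64 in WT. FUS1, a fusion protein, read 8.04, 8.09 and 8.03 in snf1Δ and 5.45, 5.54 and 5.89 in WT. Both were at least 2 log2 units higher in every snf1Δ culture than in any WT culture. FAR1 (+1.63), which arrests the cell cycle, the kinase FUS3 (+0.97) and the factor STE12 (+0.87) rose, and PRM4 (−1.98) and PRM2 (−1.03) fell.

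Daughter-specific genes of cell separation gave 10 of 12 higher and 0 lower (median +1.16), beside 40.5% and 21.6% of all genes. CTS1, chitinase, read 12.08, 11.74 and 11.57 in snf1Δ and 9.97, 10.16 and 10.07 in WT, and DSE1 (+1.92), DSE2 (+1.84), PRY3 (+1.69), SCW11 (+1.53) and AMN1 (+0.90) rose, while DSE3 and DSE4 did not pass. FLO11, the flocculin of adhesion and filaments, rose 3.41-fold, with 5.75, 5.38 and 5.35 in snf1Δ and 3.70, 3.71 and 3.76 in WT. Of 10 markers of sporulating cells, 3 rose and 4 fell, beside 40.5% and 21.6% of all genes. Their median level per array stayed near the floor, at 3.59 to 3.62 in snf1Δ and 3.16 to 3.42 in WT, with DIT2 and SPS1 at the floor. IME1, the master activator of meiosis, read 3.16, 3.26 and 3.18 in snf1Δ and 4.94, 4.82 and 5.07 in WT, and the middle-phase factor NDT80 fell by 0.72. SPS4, a sporulation-induced gene, rose 14.8-fold, with 7.13, 6.70 and 7.01 in snf1Δ and 2.85, 3.03 and 3.29 in WT. SPS100, a spore wall gene, read 5.33, 5.60 and 5.42 in snf1Δ and 12.18, 11.76 and 12.11 in WT, a 95.0-fold fall. The part of other cell types in these results was not tested, and in whole cultures a lower level per cell and fewer expressing cells cannot be told apart.

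Of 33 autophagy genes, 21 fell and 2, ATG41 (+0.67) and ATG10 (+0.41), rose (median −0.35), with ATG34 (−2.47), ATG39 (−1.48) and ATG14 (−1.29) the largest falls. Among 12 vacuolar hydrolases, 10 fell and 1 rose, with the acid trehalase ATH1 (−2.07) and the mannosidase AMS1 (−1.80) the largest falls, while the master protease PEP4 fell by 0.22 and the phosphatase PHO8 rose by 0.47. Of 33 proteasome genes, 12 fell and 1 rose, with a median of only −0.10. Ribosome biogenesis genes gave 39 of 81 higher, a share near the 40.5% of all genes, and 1 lower, NSR1 (−0.36), with NOC3 (+0.88) and UTP6 (+0.75) among the largest rises. NSR1 was not called without WT culture 10 (adjusted p = 0.0868). TORC1 components and effectors gave 8 of 25 higher and 2 lower, both under the shares of all genes (40.5% and 21.6%). One of these falls was large: CRF1, a repressor of ribosomal protein genes, was at the floor in snf1Δ and read 7.03, 5.83 and 7.04 in WT, at least 12.4-fold lower, and SCH9 and KOG1 rose by 0.39 and 0.46. In the protein kinase A pathway 5 of 15 rose and 7 fell, beside 40.5% and 21.6% of all genes. The falls included the kinase subunits TPK2 (−1.19) and BCY1 (−0.87), and RAS1 rose by 1.17.

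Beyond the lists, the largest changes included genes of little-known function. YDL218W, at the floor in snf1Δ, read 11.48, 10.65 and 11.03 in WT, at least 266-fold lower. FAT3, a gene of fatty acid uptake, was at least 86.7-fold lower, SPG1, a stationary-phase gene, fell by 6.16, and PMA2, a minor plasma membrane proton pump, was at least 55.4-fold lower. YGR035C, of unknown function, read 8.41, 9.06 and 8.52 in snf1Δ and 2.95, 4.01 and 3.23 in WT, a 38.6-fold rise. IRC7, a beta-lyase of cysteine conjugates (+3.37), ARI1, an aldehyde reductase (+3.02), and AAD6, a putative aryl-alcohol dehydrogenase (+3.01), rose, and QDR2, a multidrug transporter, was at least 7.44-fold higher.

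**Figure D4:**
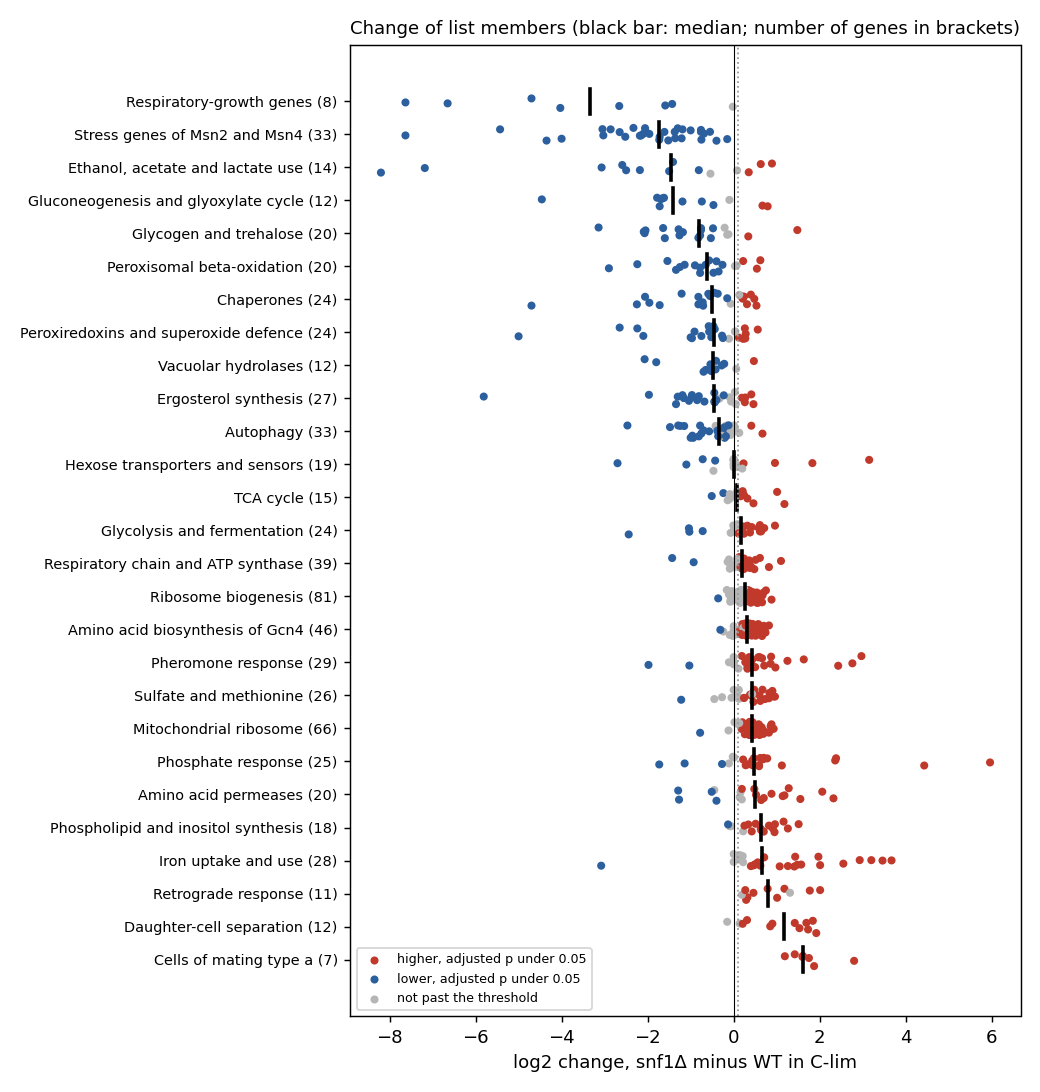
Log2 change, snf1Δ minus WT under C-lim, of each measured member of 27 gene lists, one point per gene, with the list's median as a black bar and the median of all genes (+0.10) as a dotted line. All 33 stress genes lie to the left of 0, while the 7 a-type genes lie to its right, and the ethanol list runs from −8.20 for ADH2 to +0.89 for ACS2.

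How far the effect of the deletion depended on the medium was tested as the effect under N-lim minus the effect under C-lim, so that a positive value means a lower change under C-lim. It differed for 2571 genes (47.2%), 881 with a positive difference (16.2%) and 1690 with a negative one (31.0%), and it did so by at least 1 log2 unit for 295 genes upward (5.41%) and 210 downward (3.85%). Between snf1Δ and WT, 3383 genes differed under C-lim and 1694 (31.1%) under N-lim, and the media share no arrays. Under N-lim, 74 (1.36%) were higher and 55 (1.01%) lower by at least 2-fold. Of the 2207 genes higher under C-lim, 474 (21.5%) were also higher under N-lim and 289 (13.1%) were lower, and the 474 are 61.9% of the 766 genes (14.1%) higher under N-lim. Of the 1176 lower under C-lim, 396 (33.7%) were lower and 100 (8.5%) were higher under N-lim, and the 396 are 42.7% of the 928 (17.0%) lower under N-lim.

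Stress genes had a positive difference for 30 of 33 and a negative one for 0. GRE1 changed by −7.63 under C-lim and by +1.03, not called, under N-lim, a difference of 8.66, and the catalase gene CTT1 by −2.10 under C-lim and by +1.59 under N-lim. FBP1 changed by −4.46 under C-lim and by +0.01 under N-lim, a difference of 4.47, while MLS1 fell in both media, by 1.62 under C-lim and by 1.79 under N-lim. EEB1 rose by 4.35 under C-lim and fell by 0.33 under N-lim. INO1 likewise changed by +1.51 under C-lim and by −0.29 under N-lim. HXT5 fell by 2.70 under C-lim and rose by 1.59 under N-lim. Iron genes gave 22 of 28 negative differences, with FIT2 at +3.67 under C-lim and −0.49, not called, under N-lim. Respiratory chain genes gave 37 of 39, with 26 higher and 2 lower under C-lim and 0 higher and 36 lower under N-lim, and HAP4 rose by 0.57 under C-lim and fell by 1.00 under N-lim. The 7 a-type genes all had negative differences.

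Phosphate genes were among those higher in both media, with differences in size. PHO84 rose by 5.96 under C-lim and by 6.67 under N-lim, a difference of 0.72, and VTC3 rose by 1.12 under C-lim and by 1.16 under N-lim. PHO5, at the floor in WT under C-lim, gave a difference that did not pass (−0.18). Of the 25 genes, 18 were higher under C-lim and 13 under N-lim, with 6 positive and 8 negative differences, 14 of 25 beside 47.2% of all genes. PHM6, a phosphate-regulated gene, rose by 2.36 under C-lim and by 0.63 under N-lim (difference −1.73, adjusted p = 1.92e-07, limma). SPL2 rose by 2.38 under C-lim and by 3.66 under N-lim. WT was at the floor for PHM6 under C-lim and for SPL2 in both media, so these fitted values are no bounds on the fold. GAC1 also fell in both, by 3.14 under C-lim and by 2.45 under N-lim, as did MIG1 (−0.65 under C-lim and −0.78 under N-lim), and TOS3 rose in both, by 1.58 under C-lim and by 1.21 under N-lim.

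**Figure D5:**
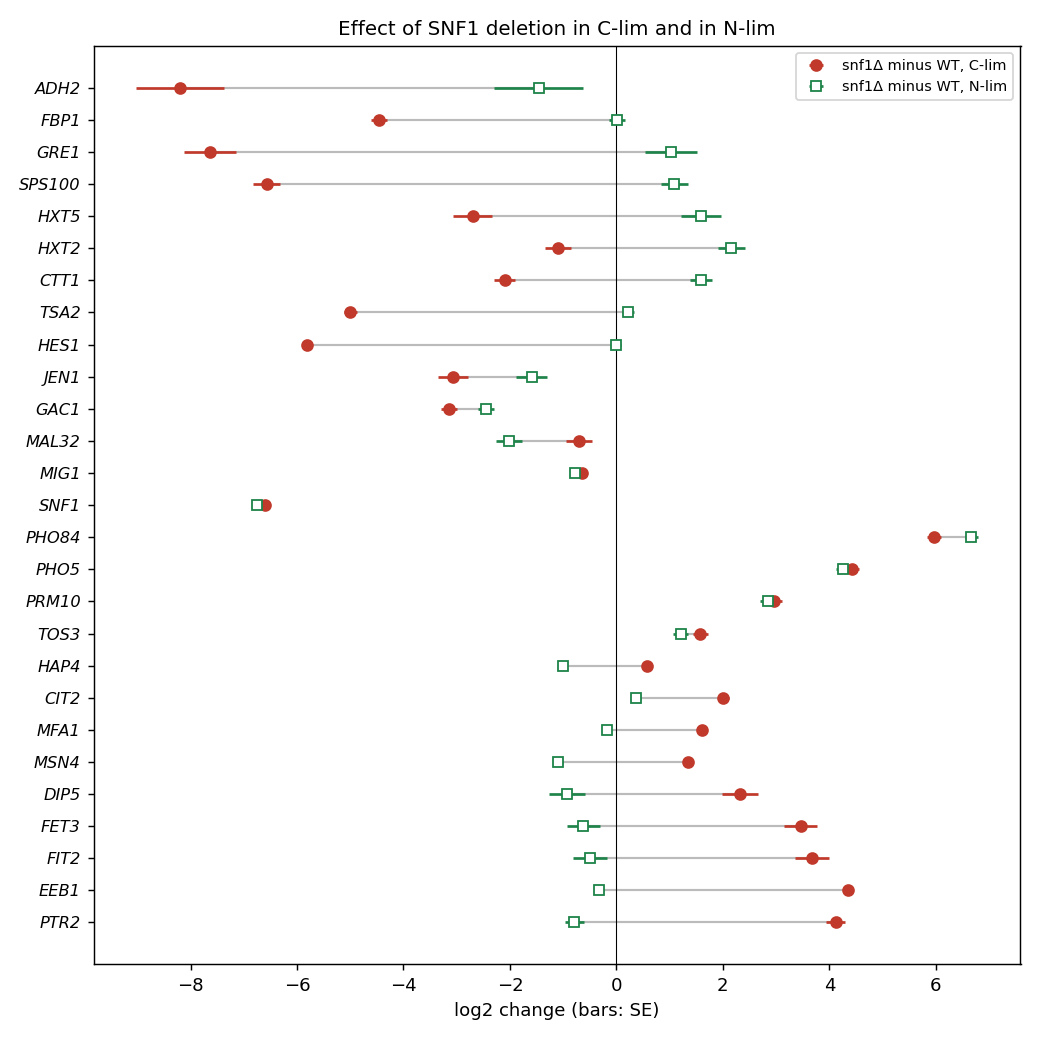
Log2 change, snf1Δ minus WT, of 27 genes under C-lim (filled red circles) and under N-lim (open green squares), with SE as bars. Where a group is at the floor, the plotted fitted change is not a bound on the fold. Such genes include SNF1, HES1, PHO5, DIP5 (WT under C-lim) and ADH2 (snf1Δ under N-lim). HES1 was at the floor in both strains under N-lim. PHO84 and PHO5 lie far to the right in both media, and GRE1, ADH2 and FBP1 lie far to the left under C-lim only. ADH2 had little room to fall under N-lim, where WT averaged 4.16 (SD 2.5) and snf1Δ 2.69.

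The strain lacking both kinases, snf1Δtor1Δ, was set against snf1Δ under C-lim, a comparison that shares the 3 snf1Δ arrays with the one above. It called 937 genes (17.2%), 586 higher (10.8%) and 351 lower (6.44%) in snf1Δtor1Δ, with 22 higher (0.404%) and 34 lower (0.624%) by at least 2-fold. The counts leaned on single cultures: 517 genes were called without snf1Δtor1Δ culture 1, 521 without its culture 2 and 612 without snf1Δ culture 10. With arrays centred on their medians, 413 were higher and 466 lower. With culture number as a replicate block, 192 genes were called, and 11 of the 30 genes checked one by one lost their call, FET3 and SSA3 among them.

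Gluconeogenic genes were higher in snf1Δtor1Δ than in snf1Δ for 6 of 12 and lower for 3. PCK1 averaged 9.19 in snf1Δtor1Δ and was 2.55 higher than in snf1Δ, FBP1 averaged 6.35 and was 2.05 higher, MLS1 was 1.20 and ICL1 1.00 higher. ADH2 averaged 2.72, at the floor, in snf1Δtor1Δ and its fall against snf1Δ did not pass (adjusted p = 0.0831, limma). RGI2, also at the floor in snf1Δtor1Δ, was called lower, with a fitted change of −3.2, and of −2.47 without snf1Δ culture 10. Of the 14 ethanol, acetate and lactate genes 10 were lower and none was higher. Iron genes were lower for 17 of 28 and higher for 2, with FIT3 averaging 8.87 (−3.49), FIT2 averaging 8.68 (−3.03) and FET3 1.68 lower. The median over the iron genes was 6.94 in snf1Δtor1Δ, against 7.17, 8.74 and 8.28 in the snf1Δ cultures. HXT1 averaged 2.88, at the floor, in snf1Δtor1Δ, while HXT4 was 1.94 higher than in snf1Δ. Chaperone genes were higher for 14 of 24 and lower for 0, with SSA3 1.04 higher, and glycolytic genes were lower for 11 of 24 and higher for 0. Phosphate genes moved little, with 1 higher and 3 lower of 25, the nucleotide phosphatase gene PHM8 being the one that was higher (+1.69).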

How the data were processed

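Whole-cell RNA of 24 chemostat cultures was hybridized to 1 Affymetrix array each, per the labels' protocols, and groups were taken from titles and genotype labels. The deposited values are on the log2 scale. Per the submitters' processing notes, the authors used RMA and affy to make these log2 values, in versions not given in the sources used here, and which arrays were normalized together is likewise not given. RMA scales the arrays to one another, so total mRNA per cell is not seen. Everything else was computed here from these log2 values, and raw array files were not used here.

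The table held 5716 probe sets. A platform table paired 5498 with 1 gene and 0 with several, and 218 unnamed ones were left out. Where a gene had more than 1 probe set (47 genes), the brightest stood for it, which gave 5449 genes, and 12 symbols were updated from RefSeq R64. Near-identical copies (HXT, FLO, PAU, COS and MAL genes) may share signal. Group means under log2 3 were called the floor.

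Genes were fitted as 8 group means over all 24 arrays with limma 3.58.1 in R 4.3.3 (16 residual and 1.71 prior degrees of freedom). P-values were adjusted by Benjamini-Hochberg over all 5449 genes in each comparison, at a threshold of 0.05. "Called", "rose" and "fell" mean past that threshold. The fit was tested on simulated data. Errors are standard errors of the fit, and 3 arrays per group limit the precision.

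Gene lists, members and rules were chosen with earlier results of these data known, so counts over a list are descriptions, read beside the share of all genes called. Genes were named from the lists, from the up to 25 largest changes each way in the C-lim comparison whose arrays did not overlap, and from the up to 8 largest differences each way in the other comparisons. Equal culture numbers did not mark a shared origin in the labels. Alternatives were another centring, quantile normalization, removal of dim genes (mean under the 25th percentile, 6.66), array weights, fewer arrays, culture number as a block and omission of each culture.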

Additional observations from a re-analysis of the deposited data

Results flagged for a closer look

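The change from WT to snf1Δ differed between media for 2571 of 5449 genes by a test of the difference itself (limma, adjusted p of 0.05, effect under N-lim minus effect under C-lim). With 3 cultures a group, no single culture could be tested as an outlier. Positive differences, with a lower change under C-lim, were largest for GRE1 (8.66), YDL218W (8.59), SPS100 (7.66), ADY2 (6.99), FDH1 (6.91), FAT3 (6.77), ADH2 (6.74) and SPG1 (6.53). They hold a desiccation protein, a spore wall protein, acetate and formate and ethanol enzymes or carriers, and genes of fatty acid uptake and stationary phase. The difference for ADH2 was 8.20 without WT culture 9 under N-lim, 5.98 and 6.04 without its cultures 10 and 11, and 7.65 and 6.04 without snf1Δ cultures 10 and 11 under C-lim. For FDH1 it was 7.90 and 6.25 without those snf1Δ cultures and 7.53 without WT culture 9 under N-lim, for ADY2 it was 7.75 without snf1Δ culture 10, and for GRE1 it was 9.48 without WT culture 9 under N-lim.

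Negative differences, with a higher change under C-lim, were largest for YGR035C (−6.21), the peptide transporter PTR2 (−4.91), the siderophore carrier SIT1 (−4.70), the ester synthase EEB1 (−4.67), YJL213W (−4.43), YGR109W-A (−4.24) and the iron genes FIT2 (−4.16) and FET3 (−4.07). Without snf1Δ culture 10 the difference for SIT1 was −5.33. YGR109W-A was at the floor in WT under C-lim, and YDL218W in every group compared except WT under C-lim. Under N-lim, YDL218W, FAT3, ADY2 and FDH1 were at the floor in both strains, with WT means of 2.46, 2.32, 2.54 and 2.94. No fall could show there, so their differences restate the fall under C-lim. ADH2 averaged 2.69 in snf1Δ and 4.16 (SD 2.5) in WT under N-lim. That WT mean leaned on culture 9, without which the ADH2 difference was 8.20, the size of its fall under C-lim. Little fall of ADH2 could therefore show under N-lim either. Fitted differences that involve a group at the floor are no bounds on the fold.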

How the results depend on the processing

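Array number and unknown scale set the limits here: 3 cultures a group, values already normalized, and a floor near log2 3 at which small shifts have little spread. No listed or named gene called in the C-lim comparison changed direction under the alternatives run. Of the 686 listed or named genes called there, centring arrays on their medians lost 43 calls, quantile normalization 22, array weights 27, the 12 C-lim arrays alone 40, the 6 arrays alone 92 and single omitted cultures 24 to 54 each; the cause was not tested. Counts stayed within 1.5 times except as follows. With dim genes removed, which left 4087 to test, genes at least 2-fold higher and lower in snf1Δ numbered 114 and 195, media differences of at least 1 log2 unit upward 164, and snf1Δtor1Δ against snf1Δ gave 13 higher and 14 lower by at least 2-fold. Under centring, the counts became 2 lower for Gcn4 targets, 3 higher for ergosterol, 1 lower for flocculins (also under quantile normalization), 2 lower for the mitochondrial ribosome (also under quantile normalization), 0 higher for the proteasome, 16 higher for respiratory complexes and 2 lower for sulfate and methionine, and under quantile normalization 4 Snf1 complex genes were higher. For snf1Δtor1Δ against snf1Δ, array weights gave 1804 calls (1156 higher, 648 lower), and omitting single cultures gave 517 to 972 (281 to 675 higher, 216 to 320 lower).

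Deviations of same-numbered snf1Δ and WT arrays under C-lim correlated at −0.293 (number 10) and −0.305 (number 11), and only those 2 numbers are shared. All same-numbered pairs with an snf1Δ C-lim array were negative, at −0.305 to −0.061. Same-numbered pairs of the other groups were all positive, at 0.018 to 0.437. The main fit took no account of culture number, and whether equal numbers mark a shared run was not tested. The snf1Δ cultures are numbered 1 higher than the WT cultures, and snf1Δ culture 11 shared 15 low genes with WT culture 10, so a pairing shifted by 1 is possible. The labels do not give one, it was not fitted, and the block says nothing about it. With culture number as a replicate block over 24 arrays, 2070 genes were higher and 1077 lower in snf1Δ, 47 of the 686 calls were lost, and snf1Δtor1Δ against snf1Δ gave 192 calls (101 higher, 91 lower), with 11 of 30 gene calls lost. With the block and the 6 arrays alone, limma called 0 genes, 0 higher and 0 lower, and 0 at 2-fold. Only the 2 shared numbers carry that comparison, so little is left to judge the spread. Its loss of calls cannot be read as a lack of differences. It had 2049 genes at an unadjusted p under 0.05, against 3528 without block over 24 arrays, fits that differ in both block and arrays.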

Other observations

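Cell wall mannoproteins of the PAU, TIR and DAN families, normally made in cold or oxygen-poor cells, were low in snf1Δ under C-lim. This group was chosen after its values were seen. Of 19 measured genes, 13 fell and 2 rose, 3 lay at the floor in both strains, the median change was −1.58, and their median level per array was 4.16, 4.51 and 4.09 in snf1Δ, against 7.98, 7.19 and 7.74 in WT. PAU3 read 3.17, 3.28 and 3.27 in snf1Δ and 9.71, 9.41 and 9.69 in WT, an 82.5-fold fall. TIR3 read 6.67, 6.73 and 6.62 in snf1Δ and 9.54, 9.29 and 9.54 in WT, a 6.88-fold fall. The cultures of the strains were far apart for both genes, while TIR2 did not differ beyond its spread (+0.02, adjusted p = 0.848, limma). Under N-lim, PAU3 changed by −0.04 and TIR3 by −0.19, and 12 of the 19 had a positive media difference and 1 a negative one. PAU genes are close to identical in sequence, so their probe sets may share signal.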
